A study of Mus musculus with 4 samples.

Results

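Il2 and Il3 encode interleukin 2 and interleukin 3, 2 growth factors that activated CD4+ T cells secrete. They were chosen by gene symbol, as 2 of 23238 symbols in the count tables, because both were far higher in Pdk4-deficient cells, so their difference between genotypes is given here as a description and not tested. The libraries came from CD4+ T cells of C57BL/6j mice, 2 of the genotype labelled WT and 2 of the genotype labelled PDK4 KO. Naive cells of spleen and lymph nodes, sorted by MACS (magnetic beads), were stimulated in vitro through CD3 and CD28 for 48 hours in both genotypes alike, with IL-2 added, so that all cells met added IL-2 protein while only their own Il2 mRNA was counted. Pdk4 encodes a mitochondrial kinase that inhibits pyruvate dehydrogenase. The labels do not describe the allele, nor the age, sex or number of mice, nor whether replicates were separate animals or cultures, and p-values here measure only how far these libraries differ, which may be technical.

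Interleukin 2 binds a receptor of the chains IL-2Rα, IL-2Rβ and the common γ chain, signals through JAK1, JAK3 and STAT5, and drives proliferation of the cell that made it and of its neighbours. Its gene is switched on after T cell receptor and CD28 engagement by NFAT, AP-1 and NF-κB factors, and IL-2 signalling in turn dampens its transcription. Interleukin 3 acts mainly on myeloid progenitors, mast cells and basophils, through IL-3Rα and a common β chain that signals by JAK2 and STAT5. Both mRNAs are short-lived, and AU-rich sequences in their 3' ends are bound by decay factors such as the ZFP36 proteins.

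The promoters and 3' ends are shown because these are the sequences through which such factors act on both genes. Il2 (ENSMUSG00000027720.7) lies on the minus strand of chromosome 3, 37120523 to 37125959 (GRCm38, GENCODE vM21), with 4 exons and a transcript of 1144 bases, of which 507 are coding. Il3 (ENSMUSG00000018914.5) lies on the minus strand of chromosome 11, 54265303 to 54267277, with 5 exons and a transcript of 629 bases, of which 498 are coding. The promoter windows, from RefSeq on GRCm38.p6, run from 250 bases before to 50 bases after each start site, at chr3:37125905-37126204 and chr11:54267230-54267529, and are written 5′ to 3′ on the gene's strand. Capitals mark matches, on either strand, to GGAAA (the core of NFAT and ETS sites), TGANTCA (an AP-1 site), TATAA (the letters of a TATA box) and AGAAATTCC (letters of the CD28 response element).
Il2: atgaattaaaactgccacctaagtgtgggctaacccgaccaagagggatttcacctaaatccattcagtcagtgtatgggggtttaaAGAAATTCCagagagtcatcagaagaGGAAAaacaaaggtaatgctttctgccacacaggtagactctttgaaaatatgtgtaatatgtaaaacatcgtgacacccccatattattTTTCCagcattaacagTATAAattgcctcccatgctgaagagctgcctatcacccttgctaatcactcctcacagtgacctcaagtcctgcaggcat
Il3: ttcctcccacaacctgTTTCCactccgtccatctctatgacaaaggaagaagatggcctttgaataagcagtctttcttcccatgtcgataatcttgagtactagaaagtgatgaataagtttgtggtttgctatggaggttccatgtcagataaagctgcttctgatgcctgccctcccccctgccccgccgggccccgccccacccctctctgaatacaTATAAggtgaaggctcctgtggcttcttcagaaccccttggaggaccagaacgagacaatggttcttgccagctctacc
Both windows held TATAA close before the start site, from -31 to -27 in Il2 and from -29 to -25 in Il3, where position -1 is the base before the start. Of 32851 promoters of the same length, 24.9% held it anywhere. GGAAA occurred 2 times in Il2, from -137 to -133 and, on the opposite strand, from -47 to -43, and 1 time in Il3, on the opposite strand from -234 to -230, and 61.3% of promoters held it. AGAAATTCC occurred in Il2 only, from -163 to -155, and in 0.289% of promoters. TGANTCA matched neither window, and 7.81% of promoters held it. Only exact matches were counted, so AP-1 sites with other letters would have been missed, and their absence is not shown. None of the motifs overlapped another in these windows. The GC content was 42.0% in Il2 and 50.7% in Il3, against a median of 52.7% over all promoters.

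In the 3′ untranslated region, the pentamer ATTTA, the core of AU-rich elements, was counted on the transcript strand only. The Il2 region of 581 bases held 7, or 1.20 per 100 bases, and the Il3 region of 101 bases held 1, or 0.990 per 100 bases. Of 20627 genes with a region of at least 50 bases, 0.630% reached the density of Il2 and 1.18% that of Il3, and 13.5% and 66.3% reached their counts. GENCODE ends Il3 218 bases before RefSeq does, and those bases were not used here. For Il2 the reverse holds, as RefSeq ends it at 37120713 and GENCODE at 37120523. Part of the Il2 region counted here thus lies outside the RefSeq gene. Below is the 30-base stretch of each region with the most pentamers, which are in capitals and may overlap, from base 35 to 64 after the stop codon in Il2 and from base 68 to 97 in Il3.
Il2: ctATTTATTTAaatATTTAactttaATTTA
Il3: ctttatgccatcaaatgtcttatcaATTTA

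Both mRNAs were low in wild-type cells and several times higher in both knockout libraries. Il2 was counted 57 and 54 times in wild-type replicates 1 and 2, against 314 and 364 times in the same-numbered knockout libraries. As CPM (counts scaled to the library total, here with TMM factors), its level was 6.48 and 5.70 for wild type, against 32.1 and 39.6 for knockout. The wild-type libraries lay close together, and the lower knockout library was 4.95-fold above the higher wild-type library. The group means were 6.09 ± 0.548 and 35.8 ± 5.30 CPM (SD, n = 2 each), a fitted fold of 5.88 and a log2 fold change of 2.56. In bulk RNA, more cells with the transcript and more transcript per cell cannot be told apart.

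Il3 was counted 26 and 57 times in wild type, against 203 and 269 times in knockout. Its levels were 2.95 and 6.02 CPM in replicates 1 and 2 of wild type, against 20.7 and 29.2 CPM for knockout. The genotypes did not overlap, but the wild-type libraries stood apart, with replicate 2 at 2.04-fold the level of replicate 1. Their 95% exact Poisson intervals, which cover counting error only, ran from 1.93 to 4.33 CPM and from 4.56 to 7.80 CPM and did not meet. For Il2 the same intervals of the wild-type libraries overlapped, at 4.91 to 8.39 and 4.28 to 7.44 CPM. The Il3 means were 4.49 ± 2.17 and 25.0 ± 6.01 CPM (SD, n = 2 each), a fitted fold of 5.52 and a log2 fold change of 2.46, which was 3.07 without wild-type replicate 2. Taking each knockout library over each wild-type library gave ratios between 4.95 and 6.94 for Il2 and between 3.45 and 9.90 for Il3.

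**Figure D1:**
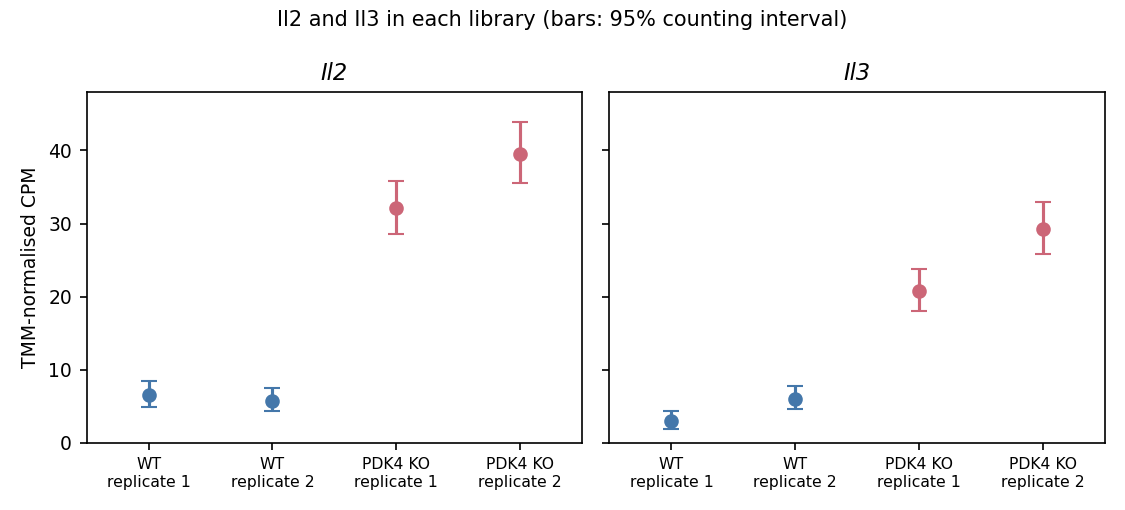
Level of Il2 (left) and Il3 (right) in each of the 4 libraries, in TMM-normalised CPM, with bars for the 95% exact Poisson interval of the count. Both knockout libraries lie above both wild-type libraries for each gene, and the wild-type libraries differ more for Il3 (2.95 and 6.02 CPM) than for Il2 (6.48 and 5.70 CPM).

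Knockout replicate 2 was above knockout replicate 1 for both genes, 1.23-fold for Il2 and 1.41-fold for Il3. In rank, Il2 had a higher level than 35.4% and 33.6% of the genes detected in wild-type replicates 1 and 2, and than 63.8% and 68.8% of those in knockout replicates 1 and 2. For Il3 these shares were 26.5% and 34.2%, and 54.3% and 62.0%. Both genes thus lay in the lower part of the detected transcripts in wild type and in the upper part in knockout. Ordered by signed log2 fold change, highest first, they stood at places 15 and 17 of 11464 tested genes. Among the 8294 with a genotype mean of 10 CPM or more, they stood at places 1 and 2. These places rank rises only and use the contrast by which both genes were chosen. Some genes that fell changed by more, such as Cd79b (log2 fold change -2.97, 12.1 CPM on average in wild type). Over all tested genes, 1.45% rose and 1.21% fell in the knockout at an adjusted p under 0.05 in edgeR's quasi-likelihood test, and in 21.5% both knockout libraries were above both wild-type libraries.

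The counted balance between both mRNAs varied among libraries. The binomial intervals given below cover counting error only, and those of libraries of the same genotype overlapped. A 3'-end read stands for a transcript whatever its length, but the annotation and strand used in counting are not given. Adad1 covers the 3' end of Il2 on the opposite strand, and GENCODE and RefSeq end both Il2 and Il3 at different bases. Reads of either gene may thus have been missed, and their levels are uncertain against each other and against other genes. Il3 made up 31.3% of the 83 reads of both genes in wild-type replicate 1 (95% exact binomial interval 21.6% to 42.4%) and 51.4% of 111 reads in replicate 2 (41.7% to 61.0%). In the knockout it made up 39.3% of 517 reads in replicate 1 (35.0% to 43.6%) and 42.5% of 633 reads in replicate 2 (38.6% to 46.5%). Il2 thus had more counted reads than Il3 in 3 of 4 libraries, and the knockout shares lay between the wild-type shares.

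The libraries held between 8837810 and 9739624 counts, and 3 counts, taken as the floor of detection, correspond to 0.307 to 0.341 CPM. Pdk4 itself was counted 1 and 0 times in wild type, and 0 and 2 times in knockout, at or under that floor, so it checks nothing about the labels. Cd4 was at 253 ± 2.13 and 260 ± 13 CPM (wild type and knockout, n = 2 each). Marker counts are to be read against the 2.66% of all tested genes that changed and the 1.21% that fell. Of 10 CD4 T cell markers 1 changed, Cd5, which rose by 0.29 on the log2 scale, but did not pass when wild-type replicate 2 (adjusted p = 0.267) or either of the knockout libraries (0.0768 for replicate 1 and 0.332 for replicate 2, edgeR) was left out. It was 1 of 2 called without wild-type replicate 1. Of 12 tested B cell markers 9 fell in the knockout, and the summed level of the 14 markers with a row was 201 to 241 CPM in wild type and 111 to 126 in knockout. Of these sums, Cd74, which did not pass, held 85.8 and 119 CPM in wild type and 86.9 and 101 CPM in knockout. It was thus most of the knockout sum, and the other markers together differed by more than the sums show. Pax5 was at 0 in all libraries, and Cd22 at 0 in both knockout libraries. Of 13 tested CD8 T and NK cell markers, Gzma and Klrc1 fell, and the list's sum was 610 to 618 CPM in wild type and 399 to 440 in knockout. Gzma alone held 219 and 219 CPM of these sums in wild type and 76.1 and 51.2 CPM in knockout. It thus made up most of the difference between the sums. Klrc1 lost its call when wild-type replicate 2 (adjusted p = 0.227) or knockout replicate 1 (adjusted p = 0.254, edgeR) was left out, and 1 of these markers then fell. The 11 mast cell and basophil markers, of cells that can make or bind interleukin 3, summed to 8.98 to 9.82 CPM and 8.28 to 10.4 CPM, with Tpsb2 and Prss34 at 0. The 6 innate-like T cell markers with a row summed to 2.16 to 4.75 CPM in wild type and 0.109 to 2.15 in knockout. For 13 myeloid and dendritic cell markers the sums were 137 to 157 CPM and 157 to 165 CPM, Siglech was at 0, and 1 of 6 tested members, Fcer1g, fell, except without knockout replicate 1 (adjusted p = 0.121, edgeR). Cst3 alone made up most of these myeloid sums, with 122 and 108 CPM in wild type and 143 and 142 CPM in knockout. Of the other tested myeloid members, Fcer1g, Tyrobp and Itgax were lower in both knockout libraries, and the genotypes overlapped for S100a8 and S100a9. The part of other cell types in the levels of Il2 and Il3 was not tested.

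The genes beside Il2 and Il3 did not all move with them. The nearest protein-coding gene upstream of Il2 is Il21, another cytokine of the common γ chain family, whose start lies 106.7 kb away. It had 71.1 and 82.7 CPM in wild type and 31.9 and 33.2 CPM in knockout, so it was lower in both knockout libraries. Il21 fell by 1.24 on the log2 scale (SE 0.140, edgeR quasi-likelihood test, Benjamini-Hochberg adjusted p = 3.64e-07). Of the other genes within 4 places on each side, 4932438A13Rik was at 162 ± 3.81 and 131 ± 11.1 CPM (adjusted p = 0.0848, edgeR), and Cetn4 and Bbs12 did not pass the test (adjusted p = 0.955 and 0.870). Adad1, which in GENCODE overlaps Il2 on the opposite strand, and Fgf2 had 0 counts in all libraries, and Bbs7 was too low to test.

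Csf2, the gene of the myeloid growth factor GM-CSF, starts 17.6 kb downstream of the start of Il3. It had 9 and 10 counts in wild type and 23 and 36 counts in knockout, or 1.02 and 1.06 CPM and 2.35 and 3.91 CPM. Both knockout libraries were the higher ones, and the difference was 1.58 on the log2 scale with a wide error (SE 0.713), and did not pass the test (adjusted p = 0.312, edgeR). Acsl6, on the other side of Il3 with its start 36.5 kb away, had 6 and 28 counts in wild type and 22 and 51 counts in knockout, and its genotypes overlapped (adjusted p = 0.513, edgeR). Pdlim4, P4ha2, Fnip1 and Rapgef6 did not pass either (adjusted p = 0.769, 0.986, 0.570 and 0.829). Meikin and Slc22a4 were too low to test. Thus 1 of 10 tested neighbours of both genes changed, against 2.66% of all tested genes.

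**Figure D2:**
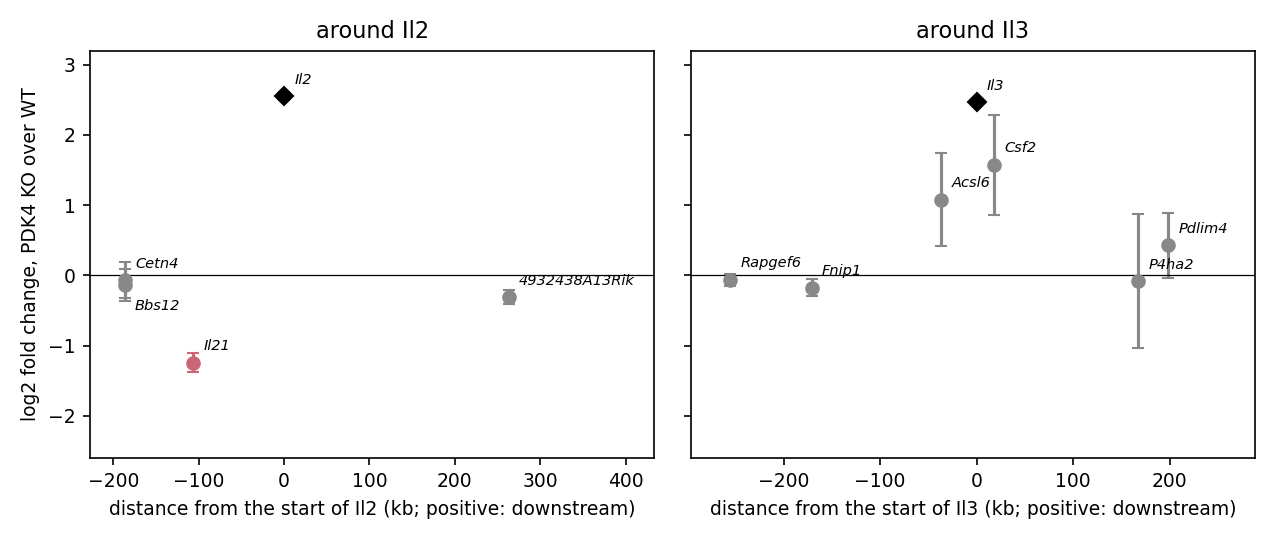
Log2 fold change (knockout over wild type) of the tested genes among the 4 nearest protein-coding genes on each side of Il2 (left) and Il3 (right), by distance between start sites in kb. Diamonds are Il2 and Il3 (2.56 and 2.46), circles with SE bars are tested neighbours, the red circle is Il21, which fell, and grey circles did not pass.

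Other T cell cytokines moved in both directions. Of 27 listed genes 20 were tested, 2 rose, 2 fell and 16 did not pass, which is 20.0% changed against 2.66% of all tested genes, with a median log2 fold change of 0.17 against 0.00 over all tested genes. Tnfsf11, which encodes the TNF family ligand RANKL, had 11.0 and 8.45 CPM in wild type and 18.4 and 25.3 CPM in knockout. It rose by 1.17 on the log2 scale (SE 0.254, adjusted p = 0.00518, edgeR). Lta, which encodes lymphotoxin alpha, had 135 and 185 CPM in wild type and 206 and 235 CPM in knockout, and rose by 0.46 (SE 0.106, adjusted p = 0.00884, edgeR). As with Il3, wild-type replicate 2 was nearer to the knockout for Lta, and it was above replicate 1 in 11 of the 20 tested cytokines and in 50.6% of all tested genes. Il24 fell from 18.7 ± 4.06 to 5.04 ± 0.822 CPM (n = 2 each, log2 fold change -1.89, adjusted p = 8.64e-05, edgeR). It lies next to the B cell gene Fcmr on the opposite strand, and the use of strand in counting is not given, so its value is uncertain.

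Calls of Tnfsf11 were lost without wild-type replicate 2 (adjusted p = 0.0937) or knockout replicate 2 (0.145), and those of Lta without wild-type replicate 1 (log2 fold change 0.25, 0.258), without knockout replicate 2 (0.170) or with DESeq2 (0.527). Without knockout replicate 2, 2 of the cytokines were called. Ifng, the Th1 cytokine, was at 13.6 ± 2.62 and 7.63 ± 0.485 CPM (wild type and knockout, n = 2 each, adjusted p = 0.155, edgeR). Cd40lg, the CD40 ligand, was at 15.4 ± 1.88 and 22.8 ± 0.552 CPM (adjusted p = 0.212), and Ebi3, a cytokine subunit, at 46.1 ± 8.76 and 59.5 ± 2.46 CPM (adjusted p = 0.221). Of the Th2 cytokines, Il4 and Il5 were too low to test, with 1 and 4 against 0 and 1 counts for Il4 and 2 and 14 against 4 and 0 for Il5. Il13, another Th2 cytokine, had 14 and 26 counts in wild type and 34 and 32 in knockout. It was thus higher in both knockout libraries but did not pass (log2 fold change 0.67, SE 0.604, adjusted p = 0.698, edgeR). As counted, Il2 and Il3 were below Lta and Il21 in both wild-type libraries. In knockout, Il2 had 32.1 CPM against 31.9 for Il21 in replicate 1, and 39.6 against 33.2 CPM in replicate 2, still below Lta. Reads of Il2 and Il3 may have been missed, so their levels against other genes are uncertain.

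**Figure D3:**
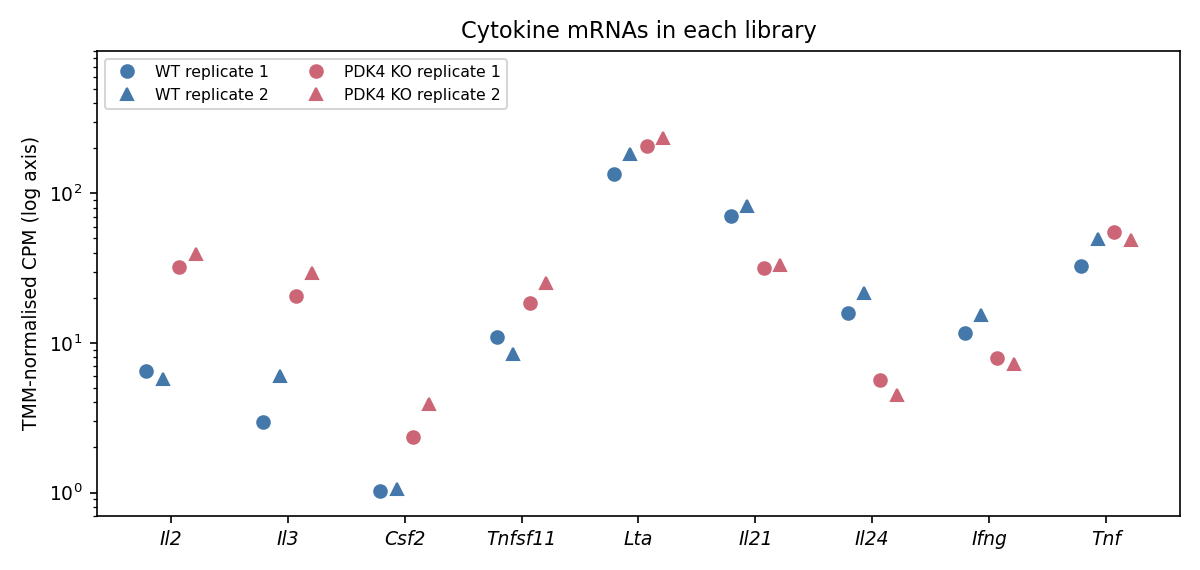
Levels of 9 cytokine mRNAs in each library, in TMM-normalised CPM on a log axis, with wild type in blue, knockout in red, circles for replicate 1 and triangles for replicate 2. Il2, Il3, Csf2, Tnfsf11 and Lta are higher in both knockout libraries, Il21, Il24 and Ifng are lower, and the genotypes overlap for Tnf. Csf2, Ifng and Tnf did not pass the test.

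The receptors of both cytokines differed widely in abundance and did not pass the test. Il2ra, the high-affinity IL-2 receptor chain, had 1172 and 1225 CPM in wild type and 1062 and 1007 CPM in knockout. Both knockout libraries were lower, with the log2 fold change being -0.21 (SE 0.0616; edgeR adjusted p = 0.0557). It passed in 4 alternatives, with an adjusted p of 0.0303 with DESeq2, 0.0198 with no filter, 0.0469 with a replicate block and 0.0260 without wild-type replicate 1. Il2rb was at 534 ± 67.1 and 512 ± 21.4 CPM (adjusted p = 0.814) and Il2rg, the common γ chain, at 790 ± 29.0 and 761 ± 1.91 CPM (adjusted p = 0.801). The IL-3 receptor was low. Il3ra had 48 and 84 counts in wild type and 76 and 51 in knockout (7.16 ± 2.41 and 6.65 ± 1.57 CPM, adjusted p = 0.952), and Csf2rb, the common β chain, 33 and 21 against 30 and 19 (2.98 ± 1.08 and 2.57 ± 0.707 CPM, adjusted p = 0.937). Csf2rb2, its near-identical mouse paralog, had 2 and 7 against 0 and 6 counts and was not tested, and reads may have been split between both. Reads of Il3ra and Csf2rb were thus present in every library at a few CPM, while Csf2rb2 had 7 counts at most and none in knockout replicate 1.

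Of 12 tested genes of IL-2 receptor signalling, 1 rose and 0 fell (8.33% changed against 2.66% of all tested genes). The riser was Stat5a, the transcription factor that both receptors activate, from 160 ± 13.5 to 202 ± 9.82 CPM (n = 2 each, log2 fold change 0.34, SE 0.0916, adjusted p = 0.0369, edgeR). Its call was lost with DESeq2 (0.0549), and when wild-type replicate 2 (0.373) or either of the knockout libraries (0.357 for replicate 1 and 0.0842 for replicate 2) was left out. The kinases Jak1 (adjusted p = 0.771), Jak3 (0.403) and Jak2 (0.833) and the phosphatase gene Ptpn6 (0.708) did not pass. In the list for the IL-3 receptor, 0 of 3 tested genes changed by edgeR or DESeq2, and 0 had an unadjusted p under 0.05. Of 18 STAT5 target genes, 2 rose, 1 fell and 15 did not pass (16.7% changed against 2.66% of all tested genes, median log2 fold change -0.03). Bcl2l1, which encodes the survival protein BCL-XL, had 154 and 157 CPM in wild type and 220 and 218 in knockout, and rose by 0.49 (SE 0.0876, adjusted p = 0.000502, edgeR). Lta is in this list too. Socs3, a feedback inhibitor of cytokine receptors, fell from 205 ± 5.64 to 160 ± 12.6 CPM (log2 fold change -0.35, adjusted p = 0.0244), but not without wild-type replicate 2 (0.172) or knockout replicate 1 (0.372). The STAT5-induced inhibitor gene Cish was at 492 and 521 CPM on average (adjusted p = 0.685), Socs1 at 126 and 105 (adjusted p = 0.211), Pim2, a survival kinase, at 222 and 192 (adjusted p = 0.294) and Socs2, another feedback inhibitor, at 63.0 and 76.4 (adjusted p = 0.419).

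Upstream of Il2 and Il3, the genes of T cell receptor and CD28 signalling did not pass, with 0 of 21 called by edgeR and 0 by DESeq2, and 7 with an unadjusted p under 0.05 in edgeR (33.3%, against 13.5% of all tested genes). The smallest p belonged to Fyn, a Src-family kinase (212 ± 25.2 and 260 ± 4.53 CPM, adjusted p = 0.0701), and Icos, a costimulatory receptor (310 ± 1.08 and 368 ± 26.0 CPM, adjusted p = 0.0860). Next were Cd247, the CD3 zeta chain (273 ± 25.3 and 234 ± 0.788 CPM, adjusted p = 0.189), and Ptprc, which encodes CD45 (1226 ± 17.9 and 1097 ± 31.3 CPM, adjusted p = 0.192). Fyn was called with no filter (0.0355) and without wild-type replicate 1 (0.00546, edgeR). Among 21 tested transcription factors that bind or activate the Il2 or Il3 gene, 1 rose and 2 fell (14.3% changed against 2.66% of all tested genes, median log2 fold change 0.03). Nfkb2, an NF-κB subunit, had 432 and 407 CPM in wild type and 511 and 587 in knockout, and rose by 0.39 (SE 0.0752, adjusted p = 0.00163, edgeR), but not without knockout replicate 2 (0.132). Ets1, an ETS factor, fell from 377 ± 25.3 to 277 ± 19.1 CPM (-0.44, adjusted p = 0.000552). Irf4, an activation-induced factor, fell from 675 ± 6.83 to 544 ± 23.3 CPM (-0.31, adjusted p = 0.00513), but not without knockout replicate 1 (0.177). Of the AP-1 family factors, Batf was at 53.6 and 41.7 CPM on average (adjusted p = 0.257), Junb at 522 and 585 (0.257), Jund at 334 and 379 (0.289) and Fosl2 at 255 and 223 (0.326, edgeR).

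Of 17 tested genes listed as restraining Il2, 2 rose, 3 fell and 12 did not pass (29.4% changed against 2.66% of all tested genes, median log2 fold change -0.17). Whether each of them restrains Il2 in these cells was not tested. Dgka, a diacylglycerol kinase that limits T cell receptor signals, had 264 and 297 CPM in wild type and 202 and 200 CPM in knockout. It fell by 0.48 on the log2 scale (SE 0.0847, adjusted p = 0.000428, edgeR). Crem, a repressor of the Il2 promoter, fell from 259 ± 3.35 to 196 ± 11.0 CPM (-0.41, adjusted p = 0.00323). Satb1, a chromatin organiser, fell from 1947 ± 65.9 to 1522 ± 112 CPM (-0.36, adjusted p = 0.000232). Against these, Egr3, an NFAT-induced factor of anergy, rose from 28.8 ± 0.950 to 46.2 ± 3.29 CPM (0.68, adjusted p = 0.0111), and Ndrg1, another anergy gene, from 48.8 ± 1.03 to 70.8 ± 7.13 CPM (0.54, adjusted p = 0.0174). The members of this list thus moved in both directions. Tob1, an antiproliferative factor, had 48 and 43 counts in wild type and 24 and 13 in knockout and did not pass (adjusted p = 0.261), nor did Cblb (40.2 and 30.5 CPM on average, 0.277), Ikzf3 (59.3 and 46.7 CPM, 0.285) and Tob2 (89.2 and 105 CPM, 0.335). Prdm1, which encodes the repressor BLIMP1, had 10.1 and 9.92 CPM in wild type and 3.68 and 9.35 in knockout (adjusted p = 0.481), where knockout replicate 1 alone stood apart. Calls were lost without knockout replicate 2 for Crem (0.0968), Egr3 (0.119) and Ndrg1 (0.232), leaving 2 of the list. They were lost without wild-type replicate 2 for Egr3 (0.109) and Ndrg1 (0.0882), leaving 3, without wild-type replicate 1 for Ndrg1 (0.0829) and without knockout replicate 1 for Satb1 (0.0555).

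None of the 18 genes for proteins that bind AU-rich mRNA or degrade it passed the test, by edgeR or DESeq2 (0 changed, 2 or 11.1% with an unadjusted p under 0.05 in edgeR against 13.5% of all tested genes, median log2 fold change -0.02). Those were Zfp36l1, a decay factor of the ZFP36 family (154 ± 9.10 and 124 ± 2.07 CPM, adjusted p = 0.0701), and Hnrnpd, which encodes AUF1 (165 ± 21.7 and 135 ± 10.5 CPM, adjusted p = 0.136). Hnrnpd was called without wild-type replicate 1 (0.0198, edgeR). Zfp36 was at 11.5 ± 0.873 and 8.36 ± 0.601 CPM (adjusted p = 0.542), Rc3h1, which encodes roquin, at 56.7 ± 0.310 and 48.8 ± 0.204 CPM (adjusted p = 0.520), and Ncl, which encodes nucleolin, at 3200 ± 95.7 and 3415 ± 122 CPM (adjusted p = 0.450). Over the 8 lists, 126 of 136 distinct genes were tested, 7 rose and 8 fell (5.56% and 6.35%, against 1.45% and 1.21% of all tested genes). The lists were chosen with earlier results of these data known, so these shares and those of each list are a description only.

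**Figure D4:**
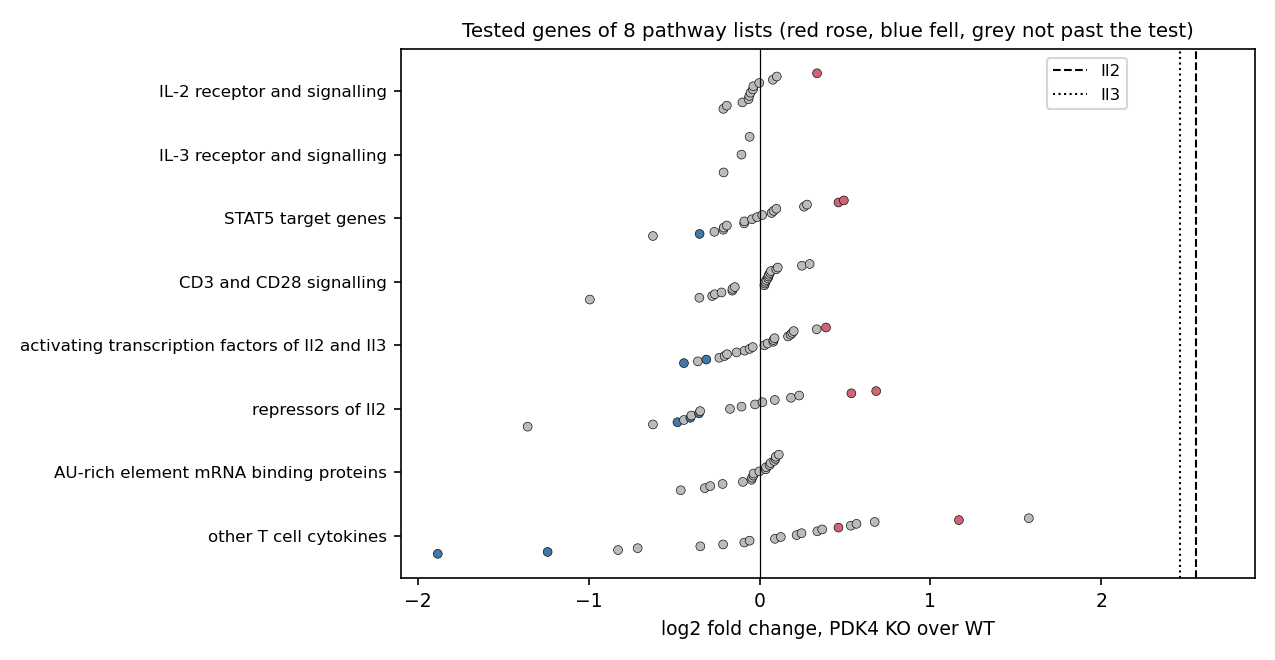
Log2 fold change (knockout over wild type) of each tested gene in 8 pathway lists, in red for genes that rose, blue for those that fell and grey for those not past edgeR's test. The vertical lines mark Il2 (2.56) and Il3 (2.46), and the listed gene nearest to them is Csf2 at 1.58.

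The gene whose pattern over the 4 libraries was most like that of Il2 was Ifi44, and for Il3 it was Samd9l. Likeness was the root mean square difference between log2 CPM deviations from each gene's mean over the 4 libraries, among 7989 tested genes that reached 10 CPM as the mean of either genotype, leaving out Gm and Rik symbols. It reads mainly the contrast by which Il2 and Il3 were chosen, and so describes these libraries only. Nearest to Il2 were Ifi44 (0.198 log2 units), with 9.20 and 5.60 CPM in wild type and 38.8 and 41.7 in knockout, and Mx2 (0.201), with 2.39 and 1.48 against 8.48 and 12.0 CPM. Cd70, the ligand of the costimulatory receptor CD27, followed (0.298), then Samd9l (0.369) and Oas3 (0.395). All of these except Cd70 are known as interferon-induced genes. Nearest to Il3 were Samd9l (0.408), Il2 (0.414), Oas3 (0.479), Rsad2 (0.491) and Ifi203 (0.521). Il3 stood at place 6 from Il2, at the same distance of 0.414. Ifi203 belongs to a family of near-identical genes, and its value is uncertain.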

How the data were processed

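RNA was measured in 4 libraries made with Lexogen's QuantSeq kit, per the labels' protocols, which reads the 3' ends of transcripts. The authors deposited raw counts per gene symbol, 1 table a library. Bowtie2, edgeR and mm10 are named in the submitters' processing notes without role or version, and for the counting tool, annotation, strand and multiple matches the sources used here give nothing. The tables had 23282 rows, and counts of 35 repeated symbols were summed. Of 23238 symbols, 15441 had a count and 11464 passed edgeR's filterByExpr. Wild-type libraries held 8837810 and 9575879 counts, knockout libraries 9739624 and 9104413.

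Genotypes were compared with edgeR 4.0.16 (R 4.3.3) by its quasi-likelihood F test (two-sided) with TMM factors and genotype as the only term, with Benjamini-Hochberg adjustment over all tested genes and a threshold of 0.05. SE is the log2 fold change divided by the square root of F. Every adjusted p is from this test unless DESeq2 (1.42.0) is named. "Rose" and "fell" are used for genes past it. Libraries of a genotype differed by more than sampling noise (chi-square per degree of freedom of 5.60 and 5.62) and each counted as 1 replicate.

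Il2, Il3 and the gene lists were chosen with earlier results of these data known. The text names the listed genes that passed and up to 4 per list by smallest p that did not, the receptor chains, the 4 nearest protein-coding neighbours on each side (1 of them is not reported here) and the 5 most similar genes, without Gm and Rik symbols. Cish, Prdm1, Zfp36, Il4, Il5, Il13, Tnf and the single cell type markers fall outside this rule and were chosen after their values were seen. The log2 CPM for likeness used a prior count of 2. Alternatives were other scalings, no filter, leaving out the ribosomal RNA precursor Rn45s, DESeq2, a replicate block and leaving out each library. Positions come from GENCODE vM21 (GRCm38, which is mm10).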

Additional observations from a re-analysis of the deposited data

How the results depend on the processing

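The log2 fold change of Il2 was 2.40 to 2.70 and that of Il3 2.05 to 3.07 when each library was left out in turn. Both stayed positive under all alternatives tried. That sign could hardly turn, since both genes were chosen for their rise and each knockout library was at least 3.45-fold above each wild-type library. Leaving out each library, 170 to 293 genes changed. The changed members were then 0 to 2 in IL-2 signalling, 0 to 1 in CD3 and CD28 signalling, 0 to 1 for AU-rich mRNA binding proteins, 2 to 4 for repressors of Il2, 2 to 4 for other cytokines, 0 to 2 for CD4 T cell markers, 1 to 2 for CD8 T and NK cell markers and 0 to 1 for myeloid markers. With no filter, 2 members of IL-2 signalling and 1 of CD3 and CD28 signalling changed. The direction of uncalled genes reversed when single libraries were left out, with ranges of log2 fold change of -0.55 to 0.21 for Csf2rb, -0.41 to 0.29 for Il3ra, -0.18 to 0.072 for Il2rb, -0.12 to 0.00037 for Jak2, -0.50 to 0.20 for Bbs12, -0.22 to 0.069 for Cetn4 and -0.78 to 1.05 for P4ha2. The cause of these changes was not tested. The labels give replicates 1 and 2 in both genotypes but no shared animal, and deviations of same-numbered libraries had a correlation of 0.011 across genes. With a replicate block, Il2 and Il3 had log2 fold changes of 2.55 and 2.51, 260 genes changed, and IL-2 signalling had 2 changed members, Stat5a and Il2ra. The precision is limited by 2 libraries a genotype and, for Il3, by 26 and 57 counts in wild type.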
